A study of Rattus norvegicus with 23 samples.

Results

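Hepatocyte fractions of 3D liver cultures with and without added Kupffer cells (KCs) were compared. The 3 hepatocyte arrays of the 3DHLK model were set against the 3 hepatocyte arrays of the 3DHL model, 6 of the 23 arrays of the study, all at day 12. The arrays were chosen by their sample titles, and all 14217 genes with a named probe set were compared, 1 probe set for each gene. In the 3DHL model, hepatocytes of female Lewis rats were covered by a detachable chitosan and hyaluronic acid multilayer that stands in for the Space of Disse, and liver sinusoidal endothelial cells (LSECs) from the same isolation were seeded on it. The 3DHLK model held, in addition, bought cryopreserved primary rat KCs on that multilayer. Magnetic beads with SE-1 and CD163 antibodies took out LSECs and KCs in turn, so the hepatocyte fraction was what the beads left behind. The other arrays were hepatocyte monolayers (HM), collagen sandwiches (CS), the LSEC and KC fractions of the 3D models, each at day 12, and KC monolayers at day 3, with 3 arrays for each group apart from 2 for the KC fraction.

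Hepatocytes make most plasma proteins, bile acids, glucose and urea of the body, and clear drugs and bile salts from the blood with cytochrome P450 enzymes and transporters, functions that fade in monolayer culture. KCs, the macrophages that reside in the sinusoid, take up particles and endotoxin, and when activated they secrete interleukin 6 and other cytokines, to which hepatocytes answer with acute phase proteins. Stellate cells and fibroblasts, which were not added to either model, make most of the collagen and other interstitial matrix of the liver.

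The promoters of 4 genes that rose, from the lists of acute phase and bile acid genes, are shown for the motif letters they hold, from RefSeq on GRCr8, 250 bases before to 50 after the start of the gene. The promoters were searched on both strands for TTCNNNGAA, the GAS motif bound by STAT proteins, in acute phase genes and for GTTAAT, a motif of HNF1, in bile acid genes, and the matches of that motif are in capitals. The first pair holds the GAS motif, in Serpina3n (chr6:129088142-129088441, plus strand, 123 bases before the start), which encodes a protease inhibitor of plasma, and in Steap4 (chr4:27054720-27055019, minus strand, 66 bases before), which encodes a metalloreductase. The second pair holds the HNF1 motif, in Slc10a1 (chr6:106357895-106358194, minus strand, 20 bases before), which encodes the sodium-dependent bile salt transporter NTCP, and in Slco1b2 (chr4:176282334-176282633, plus strand, 63 bases before), which encodes an organic anion transporter.
Serpina3n: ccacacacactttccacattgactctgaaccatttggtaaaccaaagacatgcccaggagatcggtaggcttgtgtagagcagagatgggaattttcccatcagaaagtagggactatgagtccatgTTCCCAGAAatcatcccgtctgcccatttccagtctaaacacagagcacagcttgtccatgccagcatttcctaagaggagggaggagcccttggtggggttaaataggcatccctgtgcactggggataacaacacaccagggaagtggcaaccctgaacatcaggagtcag
Steap4: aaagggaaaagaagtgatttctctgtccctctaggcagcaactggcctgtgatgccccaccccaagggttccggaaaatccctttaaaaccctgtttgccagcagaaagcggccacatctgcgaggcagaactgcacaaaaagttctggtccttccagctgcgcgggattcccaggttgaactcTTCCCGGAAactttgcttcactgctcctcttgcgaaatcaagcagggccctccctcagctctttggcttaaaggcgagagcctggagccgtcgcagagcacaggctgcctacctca
Slc10a1: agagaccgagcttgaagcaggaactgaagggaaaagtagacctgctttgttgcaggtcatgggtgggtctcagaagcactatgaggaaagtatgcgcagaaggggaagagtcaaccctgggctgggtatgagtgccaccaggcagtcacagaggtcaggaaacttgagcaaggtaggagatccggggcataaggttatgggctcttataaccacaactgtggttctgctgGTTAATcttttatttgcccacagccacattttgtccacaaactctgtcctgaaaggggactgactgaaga
Slco1b2: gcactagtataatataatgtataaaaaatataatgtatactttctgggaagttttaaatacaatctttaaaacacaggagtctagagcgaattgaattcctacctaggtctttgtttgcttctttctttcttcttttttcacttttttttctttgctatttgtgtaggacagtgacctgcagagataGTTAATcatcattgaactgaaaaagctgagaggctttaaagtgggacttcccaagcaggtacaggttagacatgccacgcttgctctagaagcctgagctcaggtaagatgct
Promoters were found for 4 of the 6 called acute phase genes, not for A2m and Fgl1, and for 5 of the 6 called bile acid genes, not for Cyp7a1. The GAS motif was found in 2 of the 4 promoters of called acute phase genes, in 2 of 15 of those that were not called, and in 8.87% of 33469 rat promoters of the same length. It was not particular to that list, since 5 of 19 promoters of bile acid genes held it against 4 of 19 of acute phase genes, and 1 of the 5 is Slco1b2, whose GAS match is left in lower case. The HNF1 motif was found in 2 of 5 promoters of called bile acid genes, in 1 of 14 of those not called, in 0 of 19 of acute phase genes and in 7.45% of all promoters. Of 4 further motifs searched on both strands in acute phase and bile acid promoters, TGTTTAC of FOXA was in 1 and 0 of 19 (3.78% of all promoters), TGACTCA of AP-1 in 2 and 1 (4.63%), CAAAGTCCA of HNF4 in 0 and 2 (0.391%) and TATAAA, the TATA box, in 8 and 1 (14.2%). A match describes these letters in this window and is not a binding site.

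The values are log2 expression values from RMA, normalised by the authors over all arrays, and a log2 change of 1 is a 2-fold difference. Replicates of the hepatocyte groups correlated at 0.9884 to 0.9945 across genes. Nothing in the labels ties replicates to separate animals or isolations, so the p-values cover the variation among these arrays, possibly only technical. The sources used here also do not say whether the 3DHL and 3DHLK cultures came from the same isolation. A difference between isolations or batches could therefore not be told apart from the addition of KCs. Each hepatocyte group has 3 arrays, but the spread of a gene was estimated over all 8 groups. An SE can therefore reflect spread in other cultures more than among the hepatocyte arrays. Hepatocyte markers were high in the fraction, with a mean over 27 genes of 12.04 ± 0.077 (SD, n = 3) in 3DHL and 12.27 ± 0.10 in 3DHLK hepatocytes. This mean does not tell the hepatocyte fraction from the LSEC fractions, where it was as high (values below). Markers of other cells were not equal between the groups. Averaged over 25 genes, markers of stellate cells and fibroblasts were at 7.72 to 7.81 in 3DHL and 9.27 to 9.44 in 3DHLK hepatocytes, and 20 macrophage markers were at 6.59 to 6.95 and 7.76 to 8.15. The KC fraction of the 3DHLK model went against its label, with macrophage markers at 6.75 to 7.04 and hepatocyte markers at 11.66 to 11.73, against 12.11 to 12.44 and 6.95 to 7.56 in KC monolayers. KC levels below are therefore those of the monolayers. The LSEC fractions also went against their label, with 24 endothelial and LSEC markers at 6.55 in 3DHL and 6.61 in 3DHLK, against 6.36 in HM and 6.39 and 6.66 in the hepatocyte fractions, and hepatocyte markers at 12.26 and 12.53. In a bulk fraction, more cells of a type and more RNA in each cell cannot be told apart.

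The hepatocyte fraction of the 3DHLK model showed large rises in matrix and stromal genes, moderate rises in macrophage genes and in some genes of hepatocyte function, and small falls. Where 3DHL or 3DHLK hepatocytes are named, this bulk fraction is meant. Of all genes, 1097 rose (7.72%) and 534 fell (3.76%) at an adjusted p under 0.05 in limma, 11.5% in all, and the median log2 change was −0.08. The counts of the gene lists below are to be read beside these shares. The rises were the larger changes, as 550 genes rose by more than 1 log2 unit and 209 by more than 2, whereas 11 fell by more than 1 and 0 by more than 2. The arrays of the groups did not overlap for 36.5% of all genes, 14.0% higher and 22.5% lower in 3DHLK. The balance of the calls depended on scaling, since 67.3% of called genes were higher in the deposited values, 77.8% after cyclic loess and 55.4% after centring on housekeeping genes. Without the KC monolayers, whose replicates varied most, 1482 rose and 1553 fell, and with an array left out 863 to 1002 rose and 222 to 618 fell.

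A level over 8 in HM separated 7990 hepatocyte-expressed genes from 6227 genes at or under it, which are named genes of other cells here. That name stands for the limit alone, as the class also holds hepatocyte genes low in monolayers and genes low in the other cultures. Of the hepatocyte-expressed genes 458 rose (5.73%) and 415 fell (5.19%), and of the genes of other cells 639 rose (10.3%) and 119 fell (1.91%). Over all genes the shares were 7.72% and 3.76%. Of the 639 rises, 193 were at least 1 log2 unit higher in KC monolayers than in 3DHL hepatocytes and 446 were not, against 1552 and 12665 of all genes. Of these rises 175 were over 8 in KC monolayers and 29 in LSECs of 3DHL, and of the 119 falls 13 and 27. The balance among hepatocyte-expressed genes turned to falls without the KC monolayers (673 rose and 1171 fell), after housekeeping centring (484 and 746), in the fit to the 6 arrays (546 and 597) and without 3DHLK array 2 (398 and 513). The limit is no clean border. Slit3 (8.04 in HM) was just inside it and Mid2 and F2rl1 (7.95 each) just outside. Mgp, a matrix protein, passed with a mean of 8.25 ± 2.92 (SD, n = 3) in HM, while Cyp7a1 (5.23) and Slco1b2 (6.14), which are genes of hepatocytes, did not pass because they were low in monolayers. Requiring a level over 8 also in LSECs of the 3DHL model was an alternative chosen after seeing the data. It left 7428 genes, of which 333 rose (4.48%) and 388 fell (5.22%). Of the 562 genes it took out, 125 rose (22.2%) and 27 fell (4.80%). Of 466 hepatocyte-expressed genes at least 3 log2 units lower in KC monolayers than in HM, 35 rose (7.51%) and 48 fell (10.3%). Among these genes the share of falls was thus above that of all genes, and the share of rises near it.

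**Figure D1:**
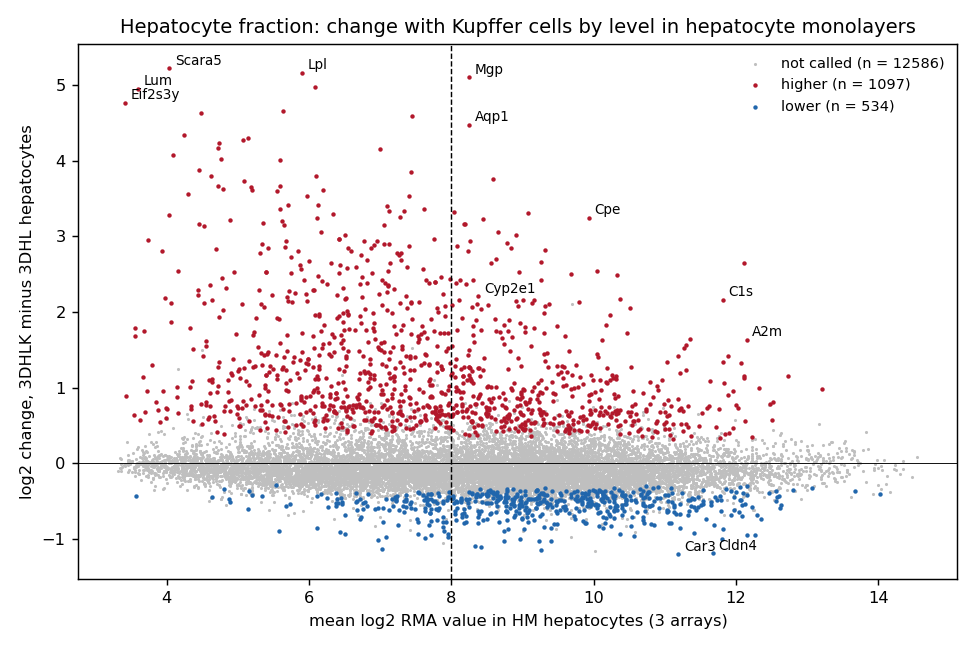
Log2 change from 3DHL to 3DHLK hepatocytes (y axis) against the mean log2 RMA value in HM (x axis, 3 arrays) for each of 14217 genes (points), with 1097 higher genes red, 534 lower genes blue and the limit of 8 dashed. Rises of more than 2 log2 units are mostly left of the limit (161 of 209), and 0 genes fall by more than 2.

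Genes of the stroma were among the largest rises. Scara5, a scavenger receptor for ferritin, was 6.29, 4.31 and 5.96 on the 3DHL arrays and 10.68, 10.94 and 10.59 on the 3DHLK arrays (log2 change 5.22, SE 0.29, adjusted p = 2.36e-11), and 4.04 in HM. In KC monolayers it was 4.17, near its level in HM. Lum, which encodes the collagen-binding proteoglycan lumican, was 3.8, 3.51 and 3.52 in 3DHL and 9.31, 8.71 and 7.64 in 3DHLK (log2 change 4.95, SE 0.25, adjusted p = 6.69e-12), against 4.0 in KC monolayers. Pdgfra, the PDGF receptor of fibroblasts, was 6.10, 5.77 and 5.33 in 3DHL and 9.63, 9.64 and 9.95 in 3DHLK (log2 change 4.01, SE 0.19, adjusted p = 2.3e-12). For each of these genes the arrays of the groups were far apart. Lpl (5.16), lipoprotein lipase, Srpx (4.97), Vegfd (4.66), a growth factor of lymphatic vessels, Grem1 (4.62), a BMP antagonist, and Sfrp1 (4.60), a secreted Wnt inhibitor, also rose by more than 4 log2 units. Among the genes named here, Grem1 had the widest spread in 3DHL hepatocytes, at 7.19, 4.93 and 4.41, still below its 10.13, 9.82 and 10.45 in 3DHLK.

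Of the 25 stellate cell and fibroblast markers, 14 rose and 0 fell, with a median log2 change of 1.81. Col1a1, the chain that defines type I collagen, was 10.09, 11.04 and 11.48 in 3DHL and 13.01, 12.96 and 13.05 in 3DHLK (log2 change 2.14, SE 0.66, adjusted p = 0.0369), but it was not called when any array but 3DHL array 3 was left out, adjusted p up to 0.179, nor under trended robust moderation. Acta2, the actin of myofibroblasts, was 9.17, 9.06 and 9.27 in 3DHL and 11.39, 11.16 and 11.41 in 3DHLK (log2 change 2.15, SE 0.65, adjusted p = 0.0338), and was not called when any of the 6 arrays was left out, adjusted p up to 0.104, nor under trended robust moderation. Neither gene overlapped between the groups, and both were called in the fit to the 6 arrays. Their SE also draws on the other cultures. The mean of the 25 markers varied more in HM and CS (SD 0.68 and 0.57) than in 3DHL and 3DHLK hepatocytes (0.05 and 0.09). Dpt (0.19, adjusted p = 0.654) and Tagln (0.67, adjusted p = 0.404), the members with the highest levels over all arrays, did not pass the test. 10 of the 25 markers were also over 8 in HM, and stellate cells or fibroblasts were no labelled component of any culture.

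The matrix itself moved in the same direction. Of 47 genes of matrix and basement membrane, 33 rose and 0 fell, with a median log2 change of 1.72 and 19 rises of more than 2. Mgp, an inhibitor of calcification, was 9.25, 7.72 and 8.0 in 3DHL and 13.37, 13.43 and 13.46 in 3DHLK (log2 change 5.10, SE 0.82, adjusted p = 0.000127), the largest rise among hepatocyte-expressed genes. Of 37 genes of matrix crosslinking and turnover, 20 rose and 0 fell (a median log2 change of 0.94). Mmp2, a gelatinase, rose by 3.36, although its other probe set gave 0.08, adjusted p = 0.823, and P4ha3, a prolyl hydroxylase of collagen, rose by 3.17.

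Of 30 TGF-beta ligands, receptors and targets, 11 rose, led by Grem1 and by Ltbp2 (2.66), a latent TGF-beta binding protein, and 0 fell (a median log2 change of 0.44). Of 29 genes of the actin cytoskeleton, 8 rose, led by the tropomyosin Tpm2 (2.54, other probe set 0.12, adjusted p = 0.759) and Acta2, and 1 fell, the actin-binding protein Pfn1 (−0.37), with a median log2 change of 0.44. Of 31 integrins and focal adhesion genes, 10 rose, led by Itga8 (3.84) and Itgb3 (1.76), and 2 fell, Itgb4 (−0.53) and Bcar1 (−0.41), with a median log2 change of 0.09. Itga8 is an integrin of mesenchymal cells and Itgb4 the integrin of epithelial hemidesmosomes. Of 43 growth factors and Wnt ligands, 15 rose, led by Sfrp1 and by Dkk3 (3.33, its other 3 probe sets −0.04, −0.09 and −0.08 and not called), and 1 fell, Pdgfa (−0.59), a ligand of Pdgfra (a median log2 change of 0.22). Pfn1 was not called when any array but 3DHLK array 2 or 3DHLK array 3 was left out, adjusted p up to 0.272, nor under the fit to the 6 arrays, the replicate block and cyclic loess. Itgb4 was not called when any array but 3DHLK array 2 was left out, adjusted p up to 0.132, nor under cyclic loess. Bcar1 was not called when any array but 3DHLK array 2 was left out, adjusted p up to 0.181, nor under the replicate block, cyclic loess and housekeeping centring.

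Macrophage genes rose to levels under those of KC monolayers. Of 20 macrophage markers, 14 rose and 0 fell, with a median log2 change of 1.25, and 3 of them were over 8 in HM. Adgre1, the gene of F4/80, was 4.43, 4.54 and 4.30 in 3DHL, 5.59, 5.89 and 6.42 in 3DHLK and 12.91 in KC monolayers (log2 change 1.55, SE 0.21, adjusted p = 1.04e-05). Ctss, a cathepsin of antigen-presenting cells, was 6.24, 7.60 and 7.01 in 3DHL, 9.81, 9.46 and 9.92 in 3DHLK and 12.58 in KC monolayers (log2 change 2.78, SE 0.37, adjusted p = 1.26e-05). Mrc1, the mannose receptor, was 6.42, 7.03 and 6.74 in 3DHL, 9.08, 9.30 and 9.68 in 3DHLK and 11.41 in KC monolayers (log2 change 2.62, SE 0.31, adjusted p = 2.32e-06). For each gene the 3DHLK arrays were above all 3DHL arrays and below the mean of KC monolayers. Lyz2, lysozyme, rose by 2.48, and Cd14 (0.10, adjusted p = 0.706), the endotoxin coreceptor, did not pass the test. Of further macrophage genes named after their values were seen, Cd5l rose by 1.71 (other probe set 0.48, adjusted p = 0.0935) to 7.13, against 14.21 in KC monolayers. Clec4f (−0.10, adjusted p = 0.677), Itgam (0.07, adjusted p = 0.852) and Ptprc (0.15, adjusted p = 0.545) were not called, at 5.74, 5.05 and 5.61 in 3DHLK against 11.61, 9.66 and 11.55 in KC monolayers, although the other probe set of Ptprc was called (1.35, adjusted p = 2.7e-06).

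Of the sex-linked genes, Eif2s3y rose and Xist fell. Eif2s3y, which is Y-linked, was 3.50, 3.56 and 3.48 in 3DHL and 8.46, 8.18 and 8.19 in 3DHLK hepatocytes (log2 change 4.76, SE 0.19, adjusted p = 1.64e-13). It was 9.14 in KC monolayers, 3.46 in the KC fraction and 3.42 in HM, so the gene was high in 3DHLK hepatocytes and KC monolayers and low in the fraction labelled KC. Xist, transcribed from the inactive X chromosome, was 10.63, 10.76 and 10.64 in 3DHL and 10.26, 9.96 and 10.11 in 3DHLK (log2 change −0.57, SE 0.17, adjusted p = 0.0338), and 4.38 in KC monolayers. This fall was not called when any array but 3DHLK array 1 was left out, adjusted p up to 0.127, nor under cyclic loess. The other 3 probe sets of Xist were called lower (−0.57, −0.77 and −0.73). Xist fell more in the LSEC fraction, as its hepatocyte minus LSEC change was 0.87. Eif2s3y did not rise with it there, since 0 of the 4 sex-linked genes rose in LSECs and 1 fell. Why Xist fell in either fraction was not tested. The hepatocytes came from female rats and no source used here gives the sex of the KCs. The probe set of Uty (−0.07, adjusted p = 0.926), also a gene of the Y chromosome, read 8.62 in HM and 5.87 in KC monolayers. As HM were hepatocytes of female rats, its values were not taken as levels of a Y-linked transcript. The part of the added cells in the rises of stromal and macrophage genes was not tested.

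**Figure D2:**
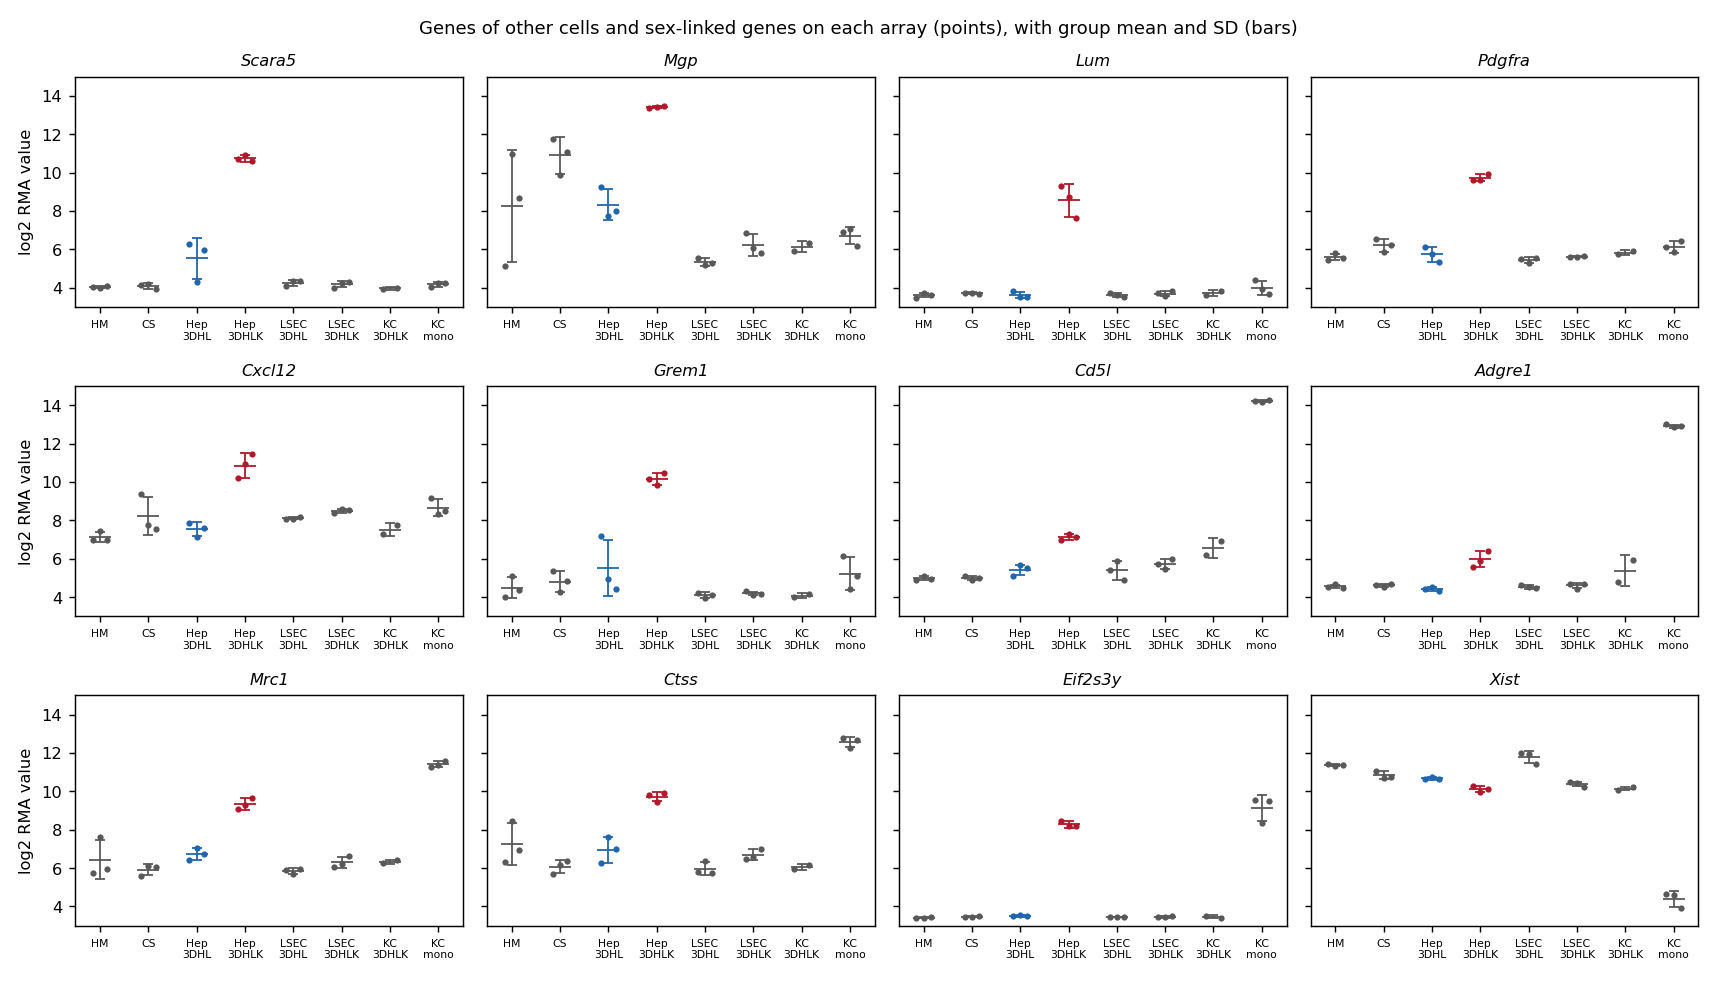
Log2 RMA value of 12 genes on each array (points, 1 per array) in 8 groups, with group mean and SD (bars), 3DHL hepatocytes blue and 3DHLK hepatocytes red. Scara5, Lum and Pdgfra are highest in 3DHLK hepatocytes (means 10.74, 8.55 and 9.74), Adgre1, Mrc1 and Ctss are highest in KC monolayers (KC mono), and Eif2s3y is high in both.

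Of 24 endothelial and LSEC markers, 5 rose and 0 fell, with a median log2 change of −0.07. Flt1, a VEGF receptor, was 7.09, 7.33 and 7.18 in 3DHL and 9.28, 9.5 and 9.75 in 3DHLK (log2 change 2.31, SE 0.25, adjusted p = 5.38e-07), and Tek (2.29), the angiopoietin receptor, and Eng (1.71), a TGF-beta coreceptor, rose as well. The other members that rose, Stab1 (0.92) and Fcgr2b (0.69), are endocytic receptors that macrophages also express. Stab2 (−0.23, adjusted p = 0.284), which marks sinusoidal endothelium, and Cd36 (−0.22, adjusted p = 0.476) did not pass the test. Of 9 cholangiocyte markers, 2 rose, the water channel Aqp1 (4.47) and osteopontin, Spp1 (2.84), both also made by other cells, and the epithelial adhesion molecule Epcam (−0.45, adjusted p = 0.287) was not called. Of 11 lymphocyte markers, 1 rose, Cd4 (0.73), which was 12.91 in KC monolayers, and Cd2 (−0.05, adjusted p = 0.866) was not called. Of 6 erythroid markers, 0 were called in limma (0 with an unadjusted p under 0.05), with Hbb at −0.21 (adjusted p = 0.365) and Epor at −0.04 (adjusted p = 0.914).

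Among hepatocyte-expressed genes, the 8 largest rises were Mgp, Aqp1, Nt5e, Slit3, Flrt2, Cpe, Xdh and Adamts1. Nt5e, which makes adenosine outside the cell, was 7.96, 7.0 and 7.62 in 3DHL and 11.34, 11.31 and 11.18 in 3DHLK (log2 change 3.75, SE 0.37, adjusted p = 1.28e-07). Cpe, a carboxypeptidase, was 9.24, 8.85 and 8.89 in 3DHL and 12.30, 12.01 and 12.40 in 3DHLK (log2 change 3.24, SE 0.34, adjusted p = 3.01e-07), with 9.93 in HM and 6.75 in KC monolayers. Xdh, xanthine dehydrogenase, rose by 3.23 and was 11.54 in KC monolayers. Slit3 (3.32) and Flrt2 (3.31), which encode guidance proteins, and Adamts1 (3.17), a matrix protease, were lower in KC monolayers than in HM. Of the 458 rises, 89 were at least 1 log2 unit higher in KC monolayers than in 3DHL hepatocytes, against 1552 of all 14217 genes.

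The falls among hepatocyte-expressed genes were smaller than the rises. Car3, a carbonic anhydrase, was 10.39, 10.21 and 10.45 in 3DHL and 9.18, 9.07 and 9.18 in 3DHLK (log2 change −1.20, SE 0.31, adjusted p = 0.0126). Cldn4, a claudin of tight junctions, was 10.96, 10.93 and 10.95 in 3DHL and 9.96, 9.83 and 9.47 in 3DHLK (log2 change −1.19, SE 0.23, adjusted p = 0.000777). The 3DHLK arrays were below every 3DHL array for both. Btc (−1.14), a ligand of the EGF receptor, the connexin Gjb5 (−1.11), Rap2b (−1.09), a small GTPase, Dapk2 (−1.03), a death-associated kinase, Sdcbp2 (−1.03) and Slc4a11 (−1.02) completed the 8 largest. Among genes of other cells the largest falls were the transcription factor Pou3f3 (−1.13), Pwwp3b (−1.02), Mid1 (−0.98), Rsad2 (−0.97), F2rl1 (−0.97), Fzd3 (−0.94), C3h15orf48 (−0.94) and Mid2 (−0.93). The other probe sets of Mid1 and Mid2 were not called, nor were these genes with the probe set brightest on the 6 arrays. Sdcbp2 was not called without 3DHLK array 1 or 3DHL array 2, adjusted p = 0.0782 and 0.0737. Rsad2 was not called without 3DHLK array 1 or 3DHL array 2, adjusted p = 0.157 and 0.139.

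Of 27 hepatocyte markers, 4 rose and 1 fell, with a median log2 change of 0.12. Cyp2e1, which oxidises ethanol and small solvents, was 7.51, 7.38 and 8.09 in 3DHL and 9.73, 10.13 and 9.73 in 3DHLK (log2 change 2.20, SE 0.20, adjusted p = 4.19e-08), and 8.38 in HM. Cyp7a1, Slc10a1 and the plasma adhesion protein Vtn (0.56) rose too, and Ahsg (−0.40), a carrier protein of plasma, fell. Alb was 14.46, 14.47 and 14.52 in 3DHL and 14.66, 14.55 and 14.52 in 3DHLK (log2 change 0.09, adjusted p = 0.894), near the highest values on these arrays, and the log2 change of the keratin Krt18 was −0.14 (adjusted p = 0.664). Of 33 cytochrome P450 and phase I genes, 8 rose and 0 fell (a median log2 change of 0.16). Cyp2c12, a P450 of female rat liver, was 8.74, 8.58 and 9.36 in 3DHL and 10.93, 10.82 and 10.01 in 3DHLK (log2 change 1.69, SE 0.29, adjusted p = 0.000215). It was 9.59 in HM, 11.34 in CS and 7.69 in KC monolayers. Cyp2d3, Cyp2a1, Ces1d, Cyp2c7, Cyp1a2 and Cyp2d2 rose by 0.52 to 1.13. Of 26 phase II enzymes, 0 rose and 1 fell, the glutathione transferase Gstm3 (−0.54), with a median log2 change of 0.02. Vtn was not called without 3DHLK array 1, 3DHLK array 2 or 3DHL array 2, adjusted p up to 0.104, nor under the fit to the 6 arrays. Ahsg was not called without 3DHLK array 3 or 3DHL array 1, adjusted p = 0.0627 and 0.051, nor under cyclic loess. Gstm3 was not called when any array but 3DHL array 3 was left out, adjusted p up to 0.175, nor under cyclic loess and housekeeping centring.

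Of 24 genes of bile acid synthesis and transport, 6 rose and 0 fell, with a median log2 change of 0.10. Cyp7a1, the rate-limiting enzyme of the classical pathway, was 4.79, 4.19 and 4.65 in 3DHL and 6.42, 6.69 and 5.75 in 3DHLK (log2 change 1.74, SE 0.28, adjusted p = 0.000105), and 5.23 in HM. Slco1b2, with the HNF1 motif shown above, was 6.75, 6.78 and 7.46 in 3DHL and 9.02, 9.19 and 8.71 in 3DHLK (log2 change 1.98, SE 0.19, adjusted p = 1.31e-07). Slc10a1, the other gene shown with that motif, was 9.29, 9.02 and 9.53 in 3DHL and 10.61, 10.47 and 9.97 in 3DHLK (log2 change 1.07, SE 0.16, adjusted p = 5.54e-05). Both uptake transporters were higher on each 3DHLK array than on any 3DHL array. Cyp8b1, which directs synthesis towards cholic acid, rose by 1.25 (SE 0.20, adjusted p = 0.000105), followed by the transporter Slco1a4 (0.67) and the bile acid ligase Slc27a5 (0.47). The other probe set of Slco1a4 was not called (0.07, adjusted p = 0.859). In KC monolayers the means were 4.96 for Cyp7a1, 5.67 for Slco1b2, 7.29 for Slc10a1, 7.12 for Cyp8b1 and 5.77 for Slco1a4, each below 3DHLK hepatocytes. Slc27a5 was higher in KC monolayers (7.77) than in 3DHLK hepatocytes (6.59). Slco1a4 was not called without 3DHLK array 3, 3DHL array 1 or 3DHL array 2, adjusted p up to 0.147, nor under the mean of probe sets. Slc27a5 was not called when any array but 3DHL array 3 was left out, adjusted p up to 0.193, nor under housekeeping centring.

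Of 23 acute phase genes, 6 rose and 0 fell, with a median log2 change of 0.27. A2m, alpha-2-macroglobulin, the classical acute phase protein of the rat, was 12.37, 12.21 and 12.17 in 3DHL and 14.01, 13.85 and 13.80 in 3DHLK (log2 change 1.64, SE 0.20, adjusted p = 4.53e-06), against 12.15 in HM and 6.33 in KC monolayers. Fgl1, a fibrinogen-like protein of hepatocytes, was 10.50, 9.63 and 10.09 in 3DHL and 11.61, 11.33 and 10.58 in 3DHLK (log2 change 1.10, SE 0.22, adjusted p = 0.0012). Serpina3n, whose promoter is among those shown with a GAS motif, was 12.40, 11.92 and 12.09 in 3DHL and 13.42, 13.03 and 12.93 in 3DHLK (log2 change 0.99, SE 0.18, adjusted p = 0.000375). In HM it was 13.21, so the 3DHLK level was at that of monolayers and the 3DHL level below it. The other promoter with a GAS motif belongs to Steap4 (0.99). Cp, the copper carrier ceruloplasmin, rose by 0.99, and Il6st (0.36), the signalling chain of the interleukin 6 receptor, completed the list. Of the other 3 probe sets of Il6st, those at 0.86 and 0.59 were called (adjusted p = 0.0033 and 0.00773) and 1 was not (0.34, adjusted p = 0.219). Members that did not pass the test ranged from Hamp (−0.34, adjusted p = 0.211), the iron hormone hepcidin, to Il1rn (0.53, adjusted p = 0.0627), the interleukin 1 antagonist. Steap4 was not called without 3DHLK array 2 or 3DHL array 2, adjusted p = 0.0797 and 0.0963. Il6st was not called without 3DHLK array 1, 3DHL array 1 or 3DHL array 3, adjusted p up to 0.129.

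Of 45 complement, coagulation and carrier proteins, 9 rose and 2 fell (a median log2 change of 0.20). C6, a terminal complement component, was 8.18, 8.23 and 8.26 in 3DHL and 9.59, 9.67 and 9.88 in 3DHLK (log2 change 1.49, SE 0.13, adjusted p = 2.28e-08). Plg, plasminogen, was 8.44, 8.29 and 8.63 in 3DHL and 9.60, 9.85 and 9.43 in 3DHLK (log2 change 1.17, SE 0.17, adjusted p = 2.37e-05). The genes that fell were Ahsg and Apoa5 (−0.53), an apolipoprotein that lowers triglycerides. Apoa5 was not called without 3DHLK array 1, 3DHL array 1 or 3DHL array 2, adjusted p up to 0.189, nor under the fit to the 6 arrays and cyclic loess.

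Rises among lipid genes were limited to part of the lists. Of lipogenesis genes 17.9% rose, of fatty acid oxidation genes 6.45% and of cholesterol synthesis genes 0.00%, against 7.72% of all genes. Of 28 lipogenesis and triglyceride genes, 5 rose and 2 fell (a median log2 change of 0.11). Scd, the stearoyl-CoA desaturase, was 11.47, 11.13 and 11.71 in 3DHL and 12.85, 12.87 and 11.86 in 3DHLK (log2 change 1.09, SE 0.22, adjusted p = 0.00122). Fasn (0.76), the fatty acid synthase, Acly (0.69) and Acaca (0.63), steps from citrate to fatty acids, rose with it. Thrsp (0.56), a regulator of these steps, was called on its brightest probe set only. The other probe sets of Thrsp (−0.40 and 0.00, adjusted p = 0.6254 and 0.9992) and Acaca (0.30, adjusted p = 0.2975) were not called. Lpin2 (−0.46) and Dgat2 (−0.32), which act in triglyceride assembly, fell. Of 31 genes of fatty acid oxidation and peroxisomes, 2 rose, Fabp1 (0.75) and Bdh1 (0.57), and 1 fell, Etfa (−0.30), with a median log2 change of 0.01. Of 19 cholesterol synthesis genes, 0 were called in limma (a median log2 change of −0.10, 0 with an unadjusted p under 0.05). Acly was not called without 3DHLK array 1, 3DHL array 1 or 3DHL array 2, adjusted p up to 0.0954. Thrsp was not called without 3DHLK array 1, 3DHLK array 2 or 3DHL array 2, adjusted p up to 0.0954, nor under the fit to the 6 arrays and the mean of probe sets. Lpin2 was not called when any array but 3DHLK array 2 or 3DHL array 1 was left out, adjusted p up to 0.128. Dgat2 was not called when any array but 3DHLK array 2 was left out, adjusted p up to 0.143, nor under the fit to the 6 arrays and cyclic loess. Fabp1 was not called when any array but 3DHLK array 3 or 3DHL array 1 was left out, adjusted p up to 0.183. Bdh1 was not called when any array but 3DHLK array 1 or 3DHL array 2 was left out, adjusted p up to 0.138, nor under the fit to the 6 arrays. Etfa was not called when any of the 6 arrays was left out, adjusted p up to 0.149, nor under the fit to the 6 arrays, the replicate block and cyclic loess.

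Of 28 genes of gluconeogenesis, glycolysis and glycogen, 5 rose and 0 fell (a median log2 change of 0.22). Pfkp, the platelet form of phosphofructokinase, was 9.32, 9.27 and 9.26 in 3DHL and 10.35, 10.26 and 10.27 in 3DHLK (log2 change 1.01, SE 0.19, adjusted p = 0.000604) and 10.77 in KC monolayers. Pklr (0.89), pyruvate kinase of liver, Fbp1 (0.69) and Pc (0.66), enzymes of gluconeogenesis, and Pck2 (0.40), whose other probe set gave 0.10, adjusted p = 0.785, also rose. Of 19 genes of the growth hormone and IGF axis, 5 rose and 0 fell (a median log2 change of 0.17). These were the binding proteins Igfbp6 (3.06), Igfbp7 (2.65) and Igfbp2 (1.33), the receptor Igf1r (1.54) and the hormone Igf1 (0.78). Of 40 genes of the urea cycle and amino acid catabolism, 2 rose, Oat (1.29), ornithine aminotransferase, and Glul (0.76, other probe sets 1.02, adjusted p = 0.00164, and 0.37, adjusted p = 0.292), glutamine synthetase, with a median log2 change of 0.14. The share of rises in this list was below the 7.72% of all genes. Both are enzymes of the perivenous zone of the liver, as is Cyp2e1. No list of zonal genes was made, and genes of that zone that fell or were not called were not collected. A change by liver zone was therefore not tested. Pck2 was not called without 3DHLK array 2 or 3DHL array 2, adjusted p = 0.0509 and 0.0686, nor under the mean of probe sets.

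Of 26 liver transcription factors and nuclear receptors, 0 rose and 4 fell, with a median log2 change of −0.23. Prox1, a homeobox factor of hepatocytes, was 10.21, 10.27 and 10.05 in 3DHL and 9.39, 9.69 and 9.32 in 3DHLK (log2 change −0.71, SE 0.18, adjusted p = 0.0101), and was not called without 3DHLK array 3 or 3DHL array 2, adjusted p = 0.0572 and 0.052, nor under cyclic loess. Onecut1 (−0.62), Ahr (−0.52), the aryl hydrocarbon receptor, and Ppargc1a (−0.43), a coactivator, fell as well. Each of these genes had another probe set that was not called, and 0 of the 26 genes of the list fell after cyclic loess. Ppara (−0.36, adjusted p = 0.182), the receptor of fatty acids, did not pass the test. Of 25 genes of glutathione and oxidative defence, 3 rose, Sod3 (1.66), Gpx3 (0.77) and Nqo1 (0.51), and 2 fell, Osgin1 (−0.48) and Gsr (−0.36), with a median log2 change of −0.15. Of 36 subunits of the respiratory chain and ATP synthase, 0 were called in limma (a median log2 change of −0.13, 2 with an unadjusted p under 0.05). Onecut1 was not called when any array but 3DHLK array 1 was left out, adjusted p up to 0.152, nor under the probe set brightest on the 6 arrays and cyclic loess. Ahr was not called when any array but 3DHL array 3 was left out, adjusted p up to 0.146, nor under cyclic loess. Ppargc1a was not called when any array but 3DHLK array 1 was left out, adjusted p up to 0.166, nor under the mean of probe sets and cyclic loess. Sod3 was not called when any array but 3DHLK array 1 or 3DHL array 3 was left out, adjusted p up to 0.259, nor under the fit to the 6 arrays, the replicate block, cyclic loess, housekeeping centring and trended robust moderation. Gpx3 was not called when any array but 3DHLK array 2 was left out, adjusted p up to 0.138. Nqo1 was not called when any array but 3DHL array 3 was left out, adjusted p up to 0.176. Osgin1 was not called when any array but 3DHLK array 2 was left out, adjusted p up to 0.157, nor under cyclic loess. Gsr was not called without 3DHLK array 1, 3DHL array 2 or 3DHL array 3, adjusted p up to 0.0739, nor under cyclic loess.

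Of 27 genes of keratins, junctions and polarity, 3 rose and 4 fell, with a median log2 change of −0.17. Ocln, occludin of tight junctions, was 10.22, 10.22 and 10.24 in 3DHL and 9.13, 9.39 and 9.26 in 3DHLK (log2 change −0.97, SE 0.13, adjusted p = 1.71e-05), with its other probe set at −0.70, adjusted p = 0.216. Cldn4 and the desmosomal genes Jup (−0.42) and Pkp2 (−0.39) fell with it. Gja1 (2.50), the connexin of stromal cells, Cldn2 (1.07), a pore-forming claudin, and Gjb2 (0.47), a connexin of hepatocytes, rose. Of the other 2 probe sets of Gja1, 1 was not called (0.03, adjusted p = 0.927). Ocln, Cldn4, Jup and Pkp2 were 8.46, 6.82, 6.92 and 6.75 in KC monolayers. Jup was not called when any array but 3DHLK array 2 was left out, adjusted p up to 0.133. Pkp2 was not called when any array but 3DHLK array 2 was left out, adjusted p up to 0.146, nor under the replicate block and cyclic loess. Gjb2 was not called when any array but 3DHLK array 3 was left out, adjusted p up to 0.211, nor under the fit to the 6 arrays and housekeeping centring.

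**Figure D3:**
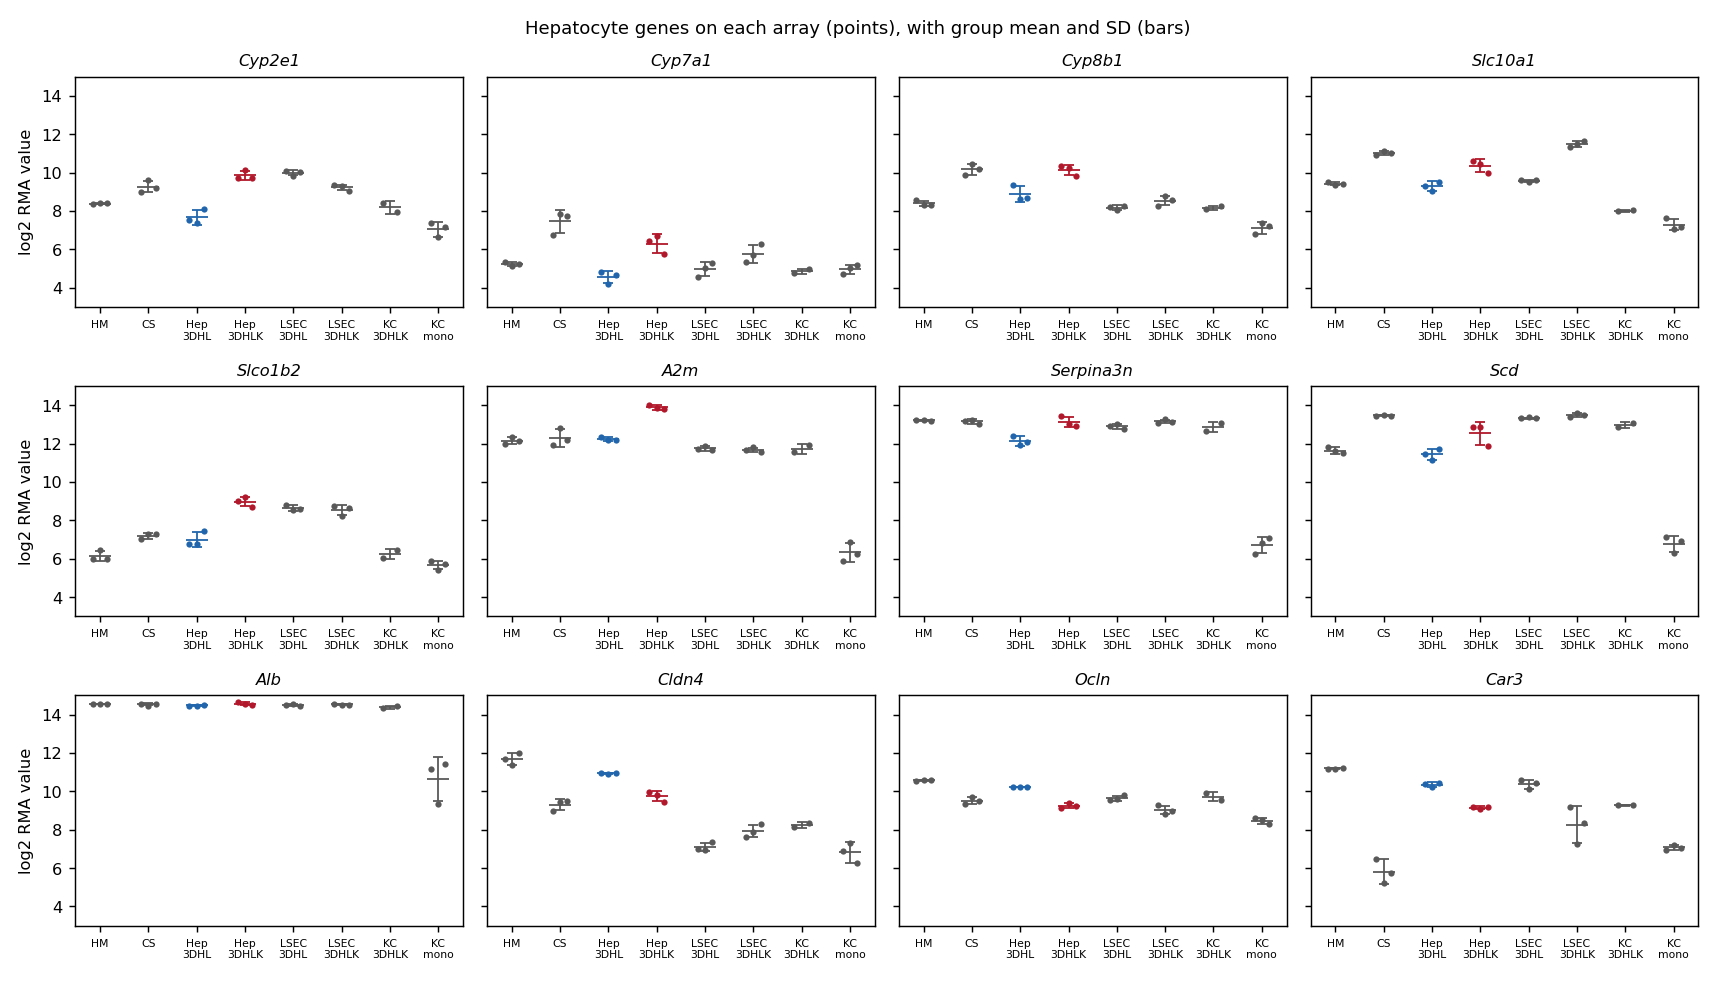
Log2 RMA value of 12 genes of hepatocyte function and junctions on each array (points, 1 per array) in 8 groups, with group mean and SD (bars), 3DHL hepatocytes blue and 3DHLK hepatocytes red. The 3DHLK arrays lie above the 3DHL arrays for Cyp2e1, Cyp7a1, Slc10a1, Slco1b2 and A2m and below them for Cldn4, Ocln and Car3, while Alb is 14.49 and 14.57.

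Inflammatory genes changed in both directions. Of 32 chemokines and receptors, 9 rose and 3 fell (a median log2 change of 0.02). Cxcl12, the stromal chemokine, was 7.86, 7.13 and 7.59 in 3DHL and 10.19, 10.91 and 11.46 in 3DHLK (log2 change 3.33, SE 0.35, adjusted p = 3.92e-07). Ccl7, which attracts monocytes, was 6.76, 6.99 and 7.04 in 3DHL and 9.48, 10.07 and 9.97 in 3DHLK (log2 change 2.91, SE 0.30, adjusted p = 2.23e-07). Ccl20 (−0.69), Cxcl10 (−0.63) and Ccl22 (−0.43) fell, the last with another probe set that was not called (−0.28, adjusted p = 0.179). Of 41 genes of cytokines and endotoxin sensing, 6 rose and 1 fell, Lif (−0.78, not called without 3DHL array 2, adjusted p = 0.0536), a cytokine of the interleukin 6 family, with a median log2 change of 0.01. Tlr4, the endotoxin receptor, was 3.91, 4.50 and 4.14 in 3DHL and 6.94, 7.31 and 7.17 in 3DHLK (log2 change 2.96, SE 0.20, adjusted p = 5.1e-10), with 7.33 in KC monolayers. Nfkbiz (2.04, other probe set −0.22, adjusted p = 0.275), Vcam1 (1.94), Csf1 (1.13, other probe sets 1.28 and 1.17, both called, and 0.04, adjusted p = 0.915), Il15 (1.12) and Myd88 (0.44) rose as well. Csf1 is the growth factor of macrophages. Ccl20 was not called without 3DHLK array 1, 3DHL array 2 or 3DHL array 3, adjusted p up to 0.073. Ccl22 was not called when any array but 3DHLK array 3 or 3DHL array 3 was left out, adjusted p up to 0.176, nor under the replicate block, cyclic loess, housekeeping centring and trended robust moderation. Myd88 was not called when any array but 3DHL array 3 was left out, adjusted p up to 0.195, nor under the replicate block.

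Of 34 interferon response genes, 3 rose and 4 fell (a median log2 change of −0.12). Irf8 (1.79), a factor of myeloid cells that was 11.47 in KC monolayers, Ifngr1 (0.65), a receptor chain, and Irf9 (0.49) rose, while Rsad2, Gbp4 (−0.77), Cxcl10 and Isg15 (−0.44) fell. Of 20 antigen presentation genes, 3 rose, Ctss, RT1-DMa (0.61) and RT1-S3 (0.50), and 0 fell (a median log2 change of −0.12). The other probe set of Irf9 and 2 of the other 3 of RT1-S3 were not called. Irf9 was not called without 3DHLK array 3, adjusted p = 0.0829. Gbp4 was not called without 3DHL array 3, adjusted p = 0.0611. Isg15 was not called when any array but 3DHLK array 3 or 3DHL array 3 was left out, adjusted p up to 0.208, nor under the fit to the 6 arrays, the replicate block and cyclic loess. RT1-DMa was not called without 3DHLK array 2 or 3DHLK array 3, adjusted p = 0.0647 and 0.0703. RT1-S3 was not called without 3DHLK array 1 or 3DHL array 2, adjusted p = 0.105 and 0.0781.

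Of 34 cell cycle genes, 2 rose (5.88%, against 7.72% of all genes), Bub1 (0.86) and Ccnb2 (0.57), and 0 fell (a median log2 change of 0.05). Of 22 immediate early genes, 2 rose and 3 fell (a median log2 change of −0.15). Fos was 5.83, 6.69 and 6.75 in 3DHL and 7.41, 8.04 and 8.16 in 3DHLK (log2 change 1.45, SE 0.23, adjusted p = 0.000111), far under its 10.05 in HM, and its other probe set gave −0.21, adjusted p = 0.485. Nr4a3 (0.81) rose too, and Atf3 (−0.83), Jun (−0.70, 1 of its other 2 probe sets −0.40, adjusted p = 0.0963) and Fosl2 (−0.53) fell. The other probe sets of Nr4a3 were not called. Of 23 genes of the unfolded protein and heat shock response, 2 fell, Ddit3 (−0.55), a stress factor also known as CHOP, and Hspb8 (−0.54), and 0 rose (a median log2 change of 0.00). Of 21 cholinergic receptors, 1 fell, Chrnb1 (−0.48), with its other probe set at −0.51, adjusted p = 0.11. The list median was −0.18, and of 12 housekeeping genes 0 were called in limma, with 0 at an unadjusted p under 0.05 (list median 0.03). Bub1 was not called without 3DHLK array 3, 3DHL array 1 or 3DHL array 2, adjusted p up to 0.278, nor under the fit to the 6 arrays, the replicate block and housekeeping centring. Ccnb2 was not called when any array but 3DHLK array 1 was left out, adjusted p up to 0.166, nor under the replicate block and housekeeping centring. Nr4a3 was not called without 3DHLK array 3, adjusted p = 0.0559. Fosl2 was not called when any of the 6 arrays was left out, adjusted p up to 0.167. Hspb8 was not called without 3DHLK array 3 or 3DHL array 2, adjusted p = 0.0841 and 0.062. Chrnb1 was not called without 3DHLK array 2, adjusted p = 0.0808.

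**Figure D4:**
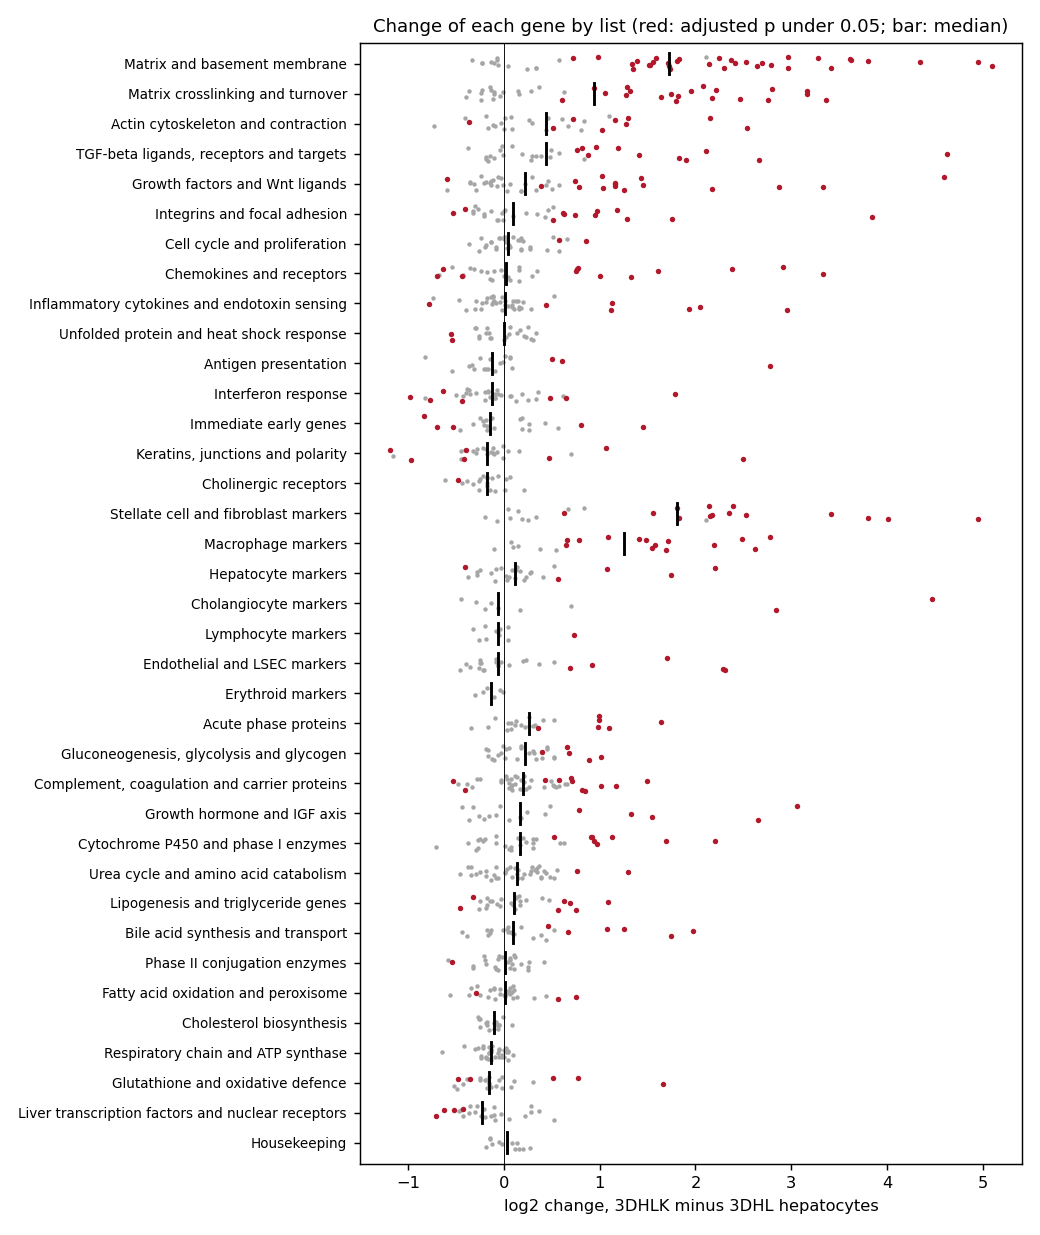
Log2 change from 3DHL to 3DHLK hepatocytes (x axis) for each gene (points, 1 per gene) of the lists other than that of sex-linked genes (y axis), with genes at an adjusted p under 0.05 red and the list median as a bar. The matrix list has the median farthest right among the lists of processes (1.72) and the stellate cell and fibroblast list among the marker lists (1.81), while the median of hepatocyte markers is 0.12.

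The hepatocyte change was set against the change of the LSEC fraction between the same models, with the difference of the changes as the test. In the fractions labelled LSEC, whose endothelial markers were near the level of HM, 7.47% of genes were called. The difference passed for 1467 genes (10.3%), of which 968 had the higher change in hepatocytes and 499 the lower. Rises of stromal and macrophage genes that were larger in hepatocytes include those of Scara5, Mgp and Ctss, with a difference of 5.29 for Scara5 (SE 0.41, adjusted p = 1.84e-08), 4.21 for Mgp and 2.04 for Ctss. Cyp2e1 rose by 2.20 in hepatocytes against a log2 change of −0.77 in LSECs, and A2m by 1.64 against −0.08, and both differences passed (adjusted p = 2.55e-07 and 0.000324). The log2 change of Cldn4 was −1.19 in hepatocytes and 0.85 in LSECs (difference −2.04, adjusted p = 0.000151). For Cyp7a1 the difference was 0.93 (adjusted p = 0.143) and for Car3 0.91 (adjusted p = 0.215), so neither was shown to differ. Of the lists, cholesterol synthesis had 10 of 19 members, fatty acid oxidation 12 of 31 and liver transcription factors 10 of 26 with the lower change in hepatocytes, and 0 with the higher. Over all 14217 genes, 499 had the lower change. In the LSEC fraction 13, 18 and 7 members of these lists rose and 0, 0 and 1 fell. In hepatocytes 0, 1 and 4 members fell, so the lower change was mostly a rise in the LSEC fraction. The LSEC fractions carried hepatocyte markers at 12.25 to 12.56, and the part of hepatocyte RNA in the LSEC changes was not tested.

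**Figure D5:**
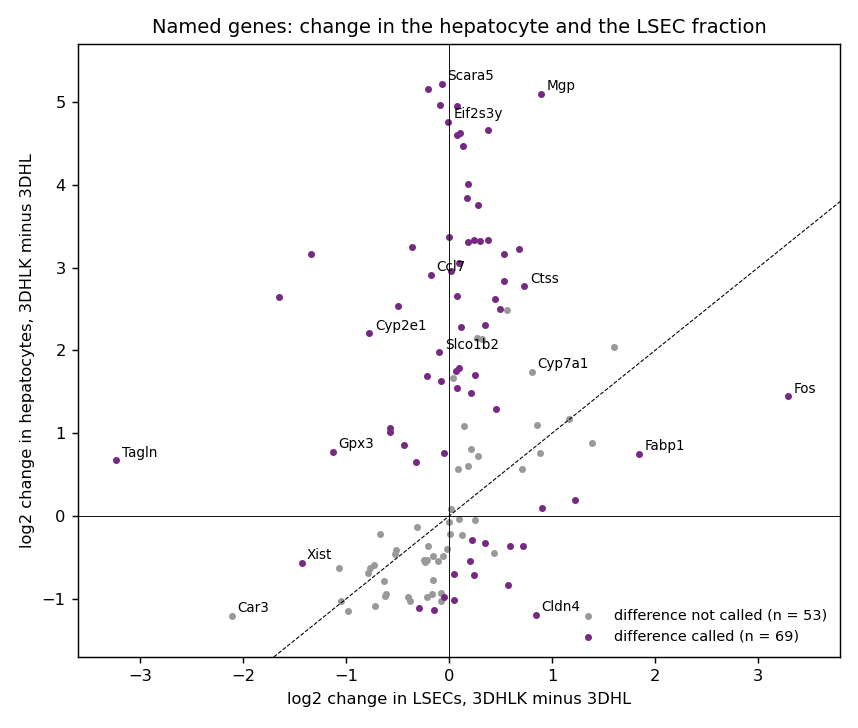
Log2 change from 3DHL to 3DHLK in hepatocytes (y axis) against that in LSECs (x axis) for 122 genes named by rule (points), with the 69 whose difference was called in purple, the others grey, and equal changes on the dashed line. Scara5, Mgp and Eif2s3y lie high with LSEC changes of −0.07, 0.89 and −0.01, and Fos and Tagln lie farthest right and left (3.3 and −3.23).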

How the data were processed

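Total RNA of each fraction was amplified, labelled with biotin and hybridised to Affymetrix rat arrays, with 23 arrays in 8 groups. The deposited values are log2 expression values, which the authors made by RMA in R (background correction, quantile normalisation over arrays and probe summarisation), with 31099 probe sets. The RMA version and an annotation build are not given in the sources used here. Quantile normalisation gives all arrays 1 distribution, so shifts common to most genes are removed, and no detection calls or signals over background were used. Control probe sets (57) were left out. Of the others, 20826 named 1 gene in GEO's platform annotation, 436 several and 9780 none, and the latter groups were not used. Each of 14217 genes was represented by its brightest probe set, by the mean of all 23 arrays (4525 genes had more than 1).

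Linear models were fitted in limma 3.58.1 (R 4.3.3) to all 8 groups, with empirical Bayes moderation and Benjamini-Hochberg adjustment over all genes, and genes were called at an adjusted p under 0.05. The change was 3DHLK minus 3DHL, with its standard error, and the difference between hepatocyte and LSEC changes was a contrast in the same fit. Groups came from sample titles. Genes over 8 in HM were counted as hepatocyte-expressed and all others as genes of other cells, whether or not another culture expressed them. Of 1044 distinct members written in 38 gene lists 950 were matched. The members and lists were chosen with earlier results of these data known.

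Named by rule were 122 genes. These were, among called genes with no overlap between the groups, the 8 largest rises and falls in each class, the 2 largest called rises and falls in each list, the 2 members of each marker list with the highest level, and 7 fixed genes (Ppara, Xist, Eif2s3y, Alb, Col1a1, Adgre1 and Stab2), without uncharacterised loci. A further 39 genes, the called members of short counts and 4 macrophage genes, were chosen after their values were seen, as were the remaining P450 genes.

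The fit was tested on simulated data of 14217 genes for the hepatocyte comparison. Of genes changed by 0.5, 1, 1.5 and 2 log2 units, 40, 82, 98 and 100% were called, and 5.88% of calls were false. The simulation changed 50 genes at each size and gave a gene the same spread in every group. In the data the median SD was 0.32 in KC monolayers, 0.10 in 3DHL and 0.15 in 3DHLK hepatocytes, so these rates need not hold for them. Alternatives were the fit to the arrays compared, no KC monolayers, a replicate block, mean or other probe sets, a filter at the 30th percentile, cyclic loess, centring on housekeeping genes, trended robust moderation, other HM limits and leaving out each array. Python 3.11.15 with matplotlib 3.10.9 was used for plots. Promoters were those of RefSeq on GRCr8, found for 38 of 47 genes of the acute phase and bile acid lists.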

Additional observations from a re-analysis of the deposited data

Results flagged for a closer look

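The change from the 3DHL to the 3DHLK model differed between the hepatocyte and the LSEC fraction in 1467 genes, by a limma contrast of the 2 changes. Values below are the hepatocyte minus the LSEC change in log2 units, and both changes rest on 3 arrays against 3.

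Among genes of matrix, stroma, adhesion and growth factors, the hepatocyte change was the higher for Lpl (5.36), Scara5 (5.29), Srpx (5.05), Lum (4.87), Sfrp1 (4.52), Grem1 (4.52), Adamts1 (4.51), Igfbp7 (4.30), Vegfd (4.28), Mgp (4.21), Tagln (3.90), Pdgfra (3.82), Itga8 (3.67), Cpe (3.61), Nt5e (3.47), Mmp2 (3.37), Flrt2 (3.13), Dkk3 (3.08), Tpm2 (3.03), Slit3 (3.02), Igfbp6 (2.96), P4ha3 (2.63), Ltbp2 (2.58), Igf1r (1.81) and Itgb3 (1.69). It was the lower for Dpt (−1.03). Among genes of macrophages, endothelium, bile ducts, inflammation and sex, the hepatocyte change was the higher for Eif2s3y (4.77), Aqp1 (4.34), Ccl7 (3.09), Cxcl12 (2.95), Tlr4 (2.94), Csf1 (2.66), Xdh (2.56), Spp1 (2.30), Mrc1 (2.18), Tek (2.18), Ctss (2.04), Vcam1 (1.99), Flt1 (1.96), Irf8 (1.69), Il15 (1.66), Adgre1 (1.47), Eng (1.45), Cd5l (1.37), Ifngr1 (0.97), Xist (0.87) and Stab1 (0.81), and the lower for Isg15 (−0.86) and Cd14 (−0.80).

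Among the other genes, most of them of hepatocyte function, junctions and stress, the hepatocyte change was the higher for Cyp2e1 (2.98), Steap4 (2.46), Slco1b2 (2.07), Gja1 (2.0), Gpx3 (1.90), Cyp2c12 (1.90), A2m (1.72), Cldn2 (1.64), Pfkp (1.58), Bub1 (1.29), C6 (1.28), Cp (1.04), Cyp8b1 (0.89), Oat (0.84), Glul (0.82), Pck2 (0.67) and Il6st (0.57). It was the lower for Cldn4 (−2.04), Fos (−1.85), Atf3 (−1.41), Fabp1 (−1.09), Ppara (−1.08), Pwwp3b (−1.06), Pou3f3 (−0.98), Gsr (−0.95), Prox1 (−0.95), Mid1 (−0.93), Slc10a1 (−0.84), Gjb5 (−0.81), Ppargc1a (−0.81), Jun (−0.75), Hspb8 (−0.74), Dgat2 (−0.67) and Etfa (−0.52). The levels of hepatocyte and macrophage markers in the LSEC, KC and hepatocyte fractions are given above, and their part in these differences was not tested.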

How the results depend on the processing

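Every count below is of calls in 1 direction, and the balance between rises and falls turned in some settings. Over all genes falls outnumbered rises without the KC monolayers (1482 rose), and among hepatocyte-expressed genes they did so there (673 rose), after centring on housekeeping genes (484), with the mean of all probe sets (485), in the fit to the arrays compared (546 rose, 597 fell), at an HM limit of 9 (294 fell), over 8 in HM and in LSECs of 3DHL (333 rose, 388 fell) and without 3DHLK array 2 (398 rose). No named gene changed sign while called. Over all genes, the count of rises was 707 with the filter on low values (main 1097), and the count of falls (main 534) was 1553 without the KC monolayers, 871 after centring on housekeeping genes and 222 to 618 with an array left out. For hepatocyte-expressed genes, rises (458) were 700 after cyclic loess and 275 at an HM limit of 9, and falls (415) were 1171 without the KC monolayers, 640 with the mean of all probe sets, 746 after centring on housekeeping genes and 164 to 513 with an array left out. For genes of other cells, rises (639) were 247 with the filter, and falls (119) were 382 without the KC monolayers, 67 with the filter, 44 at an HM limit of 7, 240 at a limit of 9 and 56 to 105 with an array left out. Differences from LSECs with the lower change in hepatocytes (499) were 1497 in the fit to the arrays compared, 1632 without the KC monolayers and 262 to 564 with an array left out. The KC monolayers enter the shared estimate of the spread, and the filter tests fewer genes. The causes of the other shifts were not tested. The fewest falls, 222, came without 3DHL array 2.

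With the replicate number as a block, 1073 genes rose and 487 fell. Deviations of arrays with the same number correlated at −0.2055, −0.2262 and 0.0289, so the numbers were not taken to pair the samples. Of the values of named genes, 59 lost and 3 gained a call under the other settings and 1353 kept theirs, and 186 lost and 1 gained a call with an array left out. Of the counts of the lists, 106 moved by over 1.5 times under the other settings and 578 did not, and 91 moved and 365 did not with an array left out. The signal over background of single genes is unknown.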
